A study of Mus musculus with 8 samples.

Results

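The genes described here are 10 macrophage genes, Cd68, Csf1r, Adgre1, C1qa, C1qb, C1qc, Lyz2, Mrc1, Cd163 and Syk, chosen by name from the 55487 gene identifiers in the deposited counts of mouse skeletal muscle. All 10 were found and had enough reads to be examined, as did 16498 genes in all (a mean of at least 10 reads). The 8 libraries came from 8 male C57BL/6J mice, 10 weeks old, whose hindlimbs were held in casts for 8 days. During immobilization, each mouse received K14Q MOTS-c, a variant of a small peptide encoded in mitochondrial DNA, injected into the abdomen 2 times a day at a total of 15 mg/kg/day. The labels name vastus lateralis as the muscle and the study's methods name gastrocnemius, and polyadenylated RNA of whole muscle was sequenced. Only this 1 condition was analysed here, so the question that the data can answer is how the macrophage genes vary between mice treated alike, not what the peptide or the cast did to them.

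Muscle holds a small population of macrophages between its fibres and in the connective tissue around them, where they clear debris and support repair. CSF1R is the receptor for the cytokines CSF1 and IL-34, on which these cells depend for survival. C1QA, C1QB and C1QC are the chains that together build C1q, the recognition part of the first component of the classical complement pathway, and tissue macrophages are its main source. Because whole muscle was sequenced, fewer macrophages and less of each RNA per macrophage cannot be told apart in these values.

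Library totals ran from 23985356 to 33012497 recovered reads, and the 10 most abundant genes took 18.8% to 26.2% of them. Summed over 7 markers of muscle fibres, the level was 35076 to 48537 TPM (transcript counts corrected for gene length and scaled to the same total in every library), against 77.1 to 262 TPM for the 10 macrophage genes together. Markers of T and NK cells gave 0 to 10 reads per library over 7 genes and markers of B cells 1 to 5 reads over 4 genes. Compared pair by pair, the libraries differed by far more than sampling noise (chi-square divided by its degrees of freedom, at least 13.6), so none was a copy of another. Mice 7 and 8 stood apart for most of the macrophage genes, being the lowest, so most correlations with C1qb and Csf1r are also given without them.

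Over all 8 mice, C1qb and C1qc had the highest Pearson correlation of any pair of the genes described, and Cd68 did not follow the others. The start regions of these 3 genes are shown first. Each runs from 250 bases before the RefSeq transcription start to 50 after it on GRCm38.p6, 5′ to 3′ on the strand of the gene, here the minus strand in all 3. Capitals mark the purine-rich GAGGAA, a form of the box bound by the macrophage factor PU.1, and the AP-1 site TGAGTCA, each searched on both strands, so that TTCCTC is GAGGAA on the other strand.
C1qb, chr4:136886151-136886450: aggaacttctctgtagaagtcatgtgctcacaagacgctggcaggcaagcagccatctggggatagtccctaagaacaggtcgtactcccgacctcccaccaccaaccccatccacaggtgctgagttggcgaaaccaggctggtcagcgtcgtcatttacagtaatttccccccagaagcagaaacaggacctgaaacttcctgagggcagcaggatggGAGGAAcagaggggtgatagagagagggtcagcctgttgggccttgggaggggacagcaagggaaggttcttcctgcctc
C1qc, chr4:136892865-136893164: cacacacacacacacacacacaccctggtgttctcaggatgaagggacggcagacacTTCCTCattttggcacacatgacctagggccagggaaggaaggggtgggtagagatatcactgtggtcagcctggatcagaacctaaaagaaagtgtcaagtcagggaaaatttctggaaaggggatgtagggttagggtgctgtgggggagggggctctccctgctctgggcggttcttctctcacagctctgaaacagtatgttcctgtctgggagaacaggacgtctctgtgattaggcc
Cd68, chr11:69666121-69666420: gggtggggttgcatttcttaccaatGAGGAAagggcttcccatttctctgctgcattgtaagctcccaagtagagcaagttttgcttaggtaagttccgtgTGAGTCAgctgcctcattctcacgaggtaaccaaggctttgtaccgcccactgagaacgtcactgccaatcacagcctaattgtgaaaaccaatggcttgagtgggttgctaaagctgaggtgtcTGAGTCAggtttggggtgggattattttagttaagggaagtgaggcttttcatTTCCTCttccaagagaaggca

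C1qb held 1 GAGGAA box, which began at position -30 from the start, and C1qc held 1 at position -193. Cd68 held 2 GAGGAA boxes, beginning at -225 and 29, and 2 AP-1 sites, beginning at -149 and -24, and no match of one motif overlapped a match of the other. RefSeq start regions were examined for 7 of the 10 genes (Mrc1, C1qb, C1qc, Cd163, Lyz2, Cd68 and Syk), and for Syk at more than 1 start, so that there were 8 windows. Windows on chromosome 18, where Csf1r lies, were left out of the search. A GAGGAA box was in a window of 5 of the 7 genes (Mrc1, C1qb, C1qc, Cd68 and Syk), and an AP-1 site was in 1, Cd68. For Syk, only 1 of its windows held the box. Of 32851 start regions of the same length, counted by window and not by gene, 28.3% held GAGGAA and 5.20% held TGAGTCA. These matches describe letters in the windows and say nothing of whether a factor was bound.

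The 3 C1q genes lie next to one another on chromosome 4, all on the minus strand, within 18675 bases. On GRCm38, C1qb (ENSMUSG00000036905) spans 136880129 to 136886187, C1qc (ENSMUSG00000036896) spans 136889804 to 136893065 and C1qa (ENSMUSG00000036887) spans 136895917 to 136898803. The normalized count, which is the read count divided by the library's size factor, was 337, 323, 331, 379, 230, 303, 198 and 197 for C1qa in mice 1 to 8. For C1qb it was 350, 331, 286, 349, 260, 296, 145 and 182, and for C1qc 303, 308, 275, 351, 258, 294, 137 and 187. All 3 chains were lowest in mice 7 and 8, and the other 6 mice did not overlap them. Means were 287 ± 69.5 for C1qa, 275 ± 76.3 for C1qb and 264 ± 69.7 for C1qc (SD, n = 8).

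Over the 8 mice, the proportion of C1qb to C1qc varied least, and those of C1qa to both varied more. The amounts of the chains differed between mice by 1.93-fold (C1qa), 2.42-fold (C1qb) and 2.56-fold (C1qc) from the lowest to the highest mouse. Per length of all annotated exons, C1qb was above C1qc by 0.88 on the log2 scale with an SD between mice of 0.0798, against an SD of 0.466 for the log2 normalized count of C1qb itself. C1qa was above C1qb by 0.15 (SD 0.191, from -0.11 to 0.52) and above C1qc by 1.03 (SD 0.199, from 0.73 to 1.42), against an SD of 0.371 for the log2 normalized count of C1qa. Mouse 7 had the highest proportion of C1qa to both, and without it the SD of the C1q log2 proportions fell from 0.191 to 0.130. Counting error alone would give a CV of 5.96% for C1qa, 6.10% for C1qb and 6.22% for C1qc. Its part in the spread of the proportions was not tested. The offsets to C1qc depend on which length is used, because its annotated exons cover 1931 bases and its longest transcript 1203: per longest transcript the mean log2 differences from C1qc were 0.35 for C1qa and 0.20 for C1qb. The spread of the proportions does not depend on the length. Across the 8 mice, C1qb and C1qc had Pearson's r = 0.985 (two-sided exact permutation p = 9.92e-05) and Spearman's rho = 0.929 (exact permutation p = 0.00223), and r = 0.881 without mice 7 and 8, the 2 mice farthest from the median. For C1qa, r was 0.920 with C1qb (exact permutation p = 0.000818, rho = 0.881, p = 0.00724) and 0.898 with C1qc (exact permutation p = 0.00057, rho = 0.857, p = 0.0107). Without mice 7 and 8 these were 0.836 and 0.837.

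**Figure D1:**
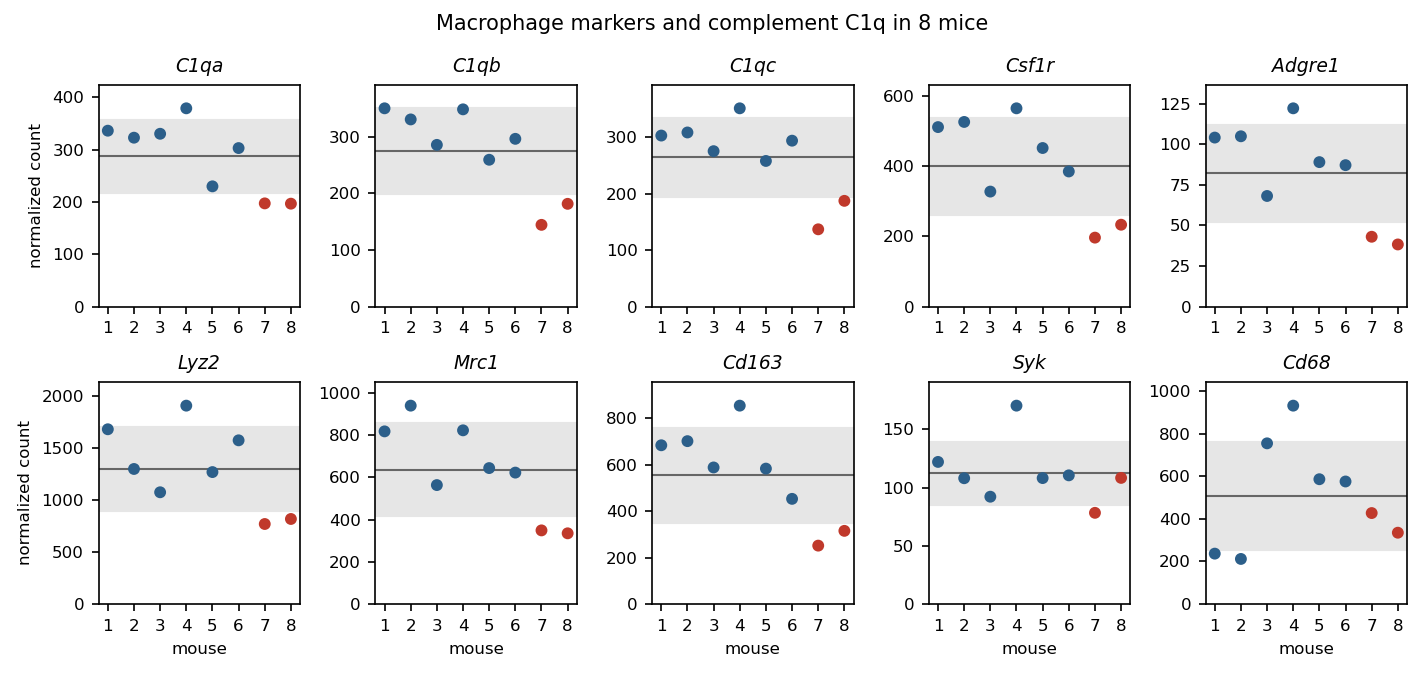
Normalized count (vertical axis, from 0) of each gene in mice 1 to 8 (horizontal axis), 1 panel per gene, with the mean as a line and 1 SD on either side shaded. Mice 7 and 8, in red, hold the 2 lowest values in 8 of the 10 panels, whereas Cd68 is lowest in mice 1 and 2.

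Among the surface receptors, Csf1r had 511, 525, 327, 564, 451, 385, 196 and 233 normalized counts in mice 1 to 8, a mean of 399 ± 137 (SD, n = 8). Adgre1, which encodes F4/80, the adhesion receptor by which mouse macrophages are usually recognized, had 104, 105, 68.1, 122, 89.0, 87.1, 43.1 and 38.3, a mean of 82.1 ± 30.0 (SD, n = 8). Both were lowest in mice 7 and 8 and highest in mouse 4. The last 873 bases of Csf1r overlap Hmgxb3 on the opposite strand (528 normalized counts on average), and the use of strand in counting was not given in the sources used here, so reads there could belong to either gene.

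Mrc1 and Cd163, scavenger receptors typical of resident macrophages, take up mannosylated glycoproteins and haemoglobin bound to haptoglobin, respectively. Mrc1 had 818, 939, 563, 822, 644, 622, 349 and 335 normalized counts in mice 1 to 8, a mean of 637 ± 220 (SD, n = 8), and was highest in mouse 2. Cd163 had 684, 701, 588, 854, 583, 453, 252 and 315, a mean of 554 ± 203 (SD, n = 8). For both receptors, mice 7 and 8 lay below all other mice.

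Lyz2, the lysozyme of mouse macrophages and other myeloid cells, had 1680, 1298, 1074, 1907, 1268, 1573, 769 and 818 normalized counts in mice 1 to 8, a mean of 1298 ± 406 (SD, n = 8). Its near-identical neighbour Lyz1 was counted at 92.0 to 281 normalized counts, and how reads were split between the paralogs is uncertain. Syk, the tyrosine kinase that carries signals from Fc receptors and related immune receptors, had 122, 108, 92.2, 170, 108, 111, 78.4 and 108, a mean of 112 ± 26.9 (SD, n = 8). Mouse 4 was apart at the top for Syk and the other 7 mice lay between 78.4 and 122, so that mice 7 and 8 did not stand out as a pair.

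Cd68, a glycoprotein of lysosomes and endosomes used to stain macrophages, had 237, 212, 754, 931, 586, 575, 427 and 335 normalized counts in mice 1 to 8, a mean of 507 ± 253 (SD, n = 8). It was lowest in mice 1 and 2, which both lay above the mean for 7 of the other 9 genes, and its highest mouse had 4.40 times the lowest, the widest range of the 10. Its coefficient of variation (CV) was 49.9%, larger than that of 97.2% of the 16498 genes. The biological CV by edgeR was 50.6%, against 16.1% for the trend of genes of similar abundance, and counting error alone would give a CV of 4.49%.

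For the other 9 genes the CV was between 24.0% (Syk) and 36.7% (Cd163), which placed them between the 73.0 and 90.8 percentiles of all genes. Counting error alone would give between 2.80% for Lyz2 and 11.2% for Adgre1, so in each of the 9 the spread between mice was larger than counting error. Mice 7 and 8 held the 2 lowest values in 8 of the 10 genes, an arrangement found in 9.9% of the 16498 genes, the exceptions being Cd68 and Syk. Mouse 4 held the highest value in 8 of the 10 genes, against 13% of all genes, the exceptions being C1qb and Mrc1. The median CV of the 10 genes fell from 32.9% to 19.8% when mice 7 and 8 were left out.

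Per length, Lyz2 had the highest level at 62.0 ± 24.5 TPM (SD, n = 8), followed by Cd68 at 26.3 ± 16.5, C1qa at 17.4 ± 5.92 and C1qb at 15.8 ± 5.41. C1qc (8.60 ± 3.0 TPM), Cd163 (6.41 ± 2.88), Mrc1 (6.23 ± 2.35) and Csf1r (4.33 ± 1.72) were in the middle. Adgre1 (1.59 ± 0.685 TPM) and Syk (0.752 ± 0.267) were lowest. Neighbours in this order were compared within each mouse by an exact two-sided sign-flip permutation test, in 9 comparisons whose smallest possible p is 0.00781. The order was the same in 8 of 8 mice for 6 of the 9 neighbouring pairs, each at that smallest p: Lyz2 above Cd68, C1qb above C1qc, C1qc above Cd163, Mrc1 above Csf1r, Csf1r above Adgre1 and Adgre1 above Syk. Cd68 was above C1qa in 6 of 8 mice (exact permutation p = 0.172) and C1qa above C1qb in 7 of 8 (exact permutation p = 0.0547), so these neighbours did not differ beyond their spread. Cd163 was above Mrc1 in 4 of 8 mice, with a mean log2 difference of 0.0073 (SD 0.220, exact permutation p = 0.914). With the longest transcript as the length, the order held in all mice for 5 of the 9 pairs. The gap between Adgre1 and Syk depends on this choice. The annotated exons of Syk cover 9362 bases and its longest transcript 5363, whereas Adgre1 has 3238 by either.

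**Figure D2:**
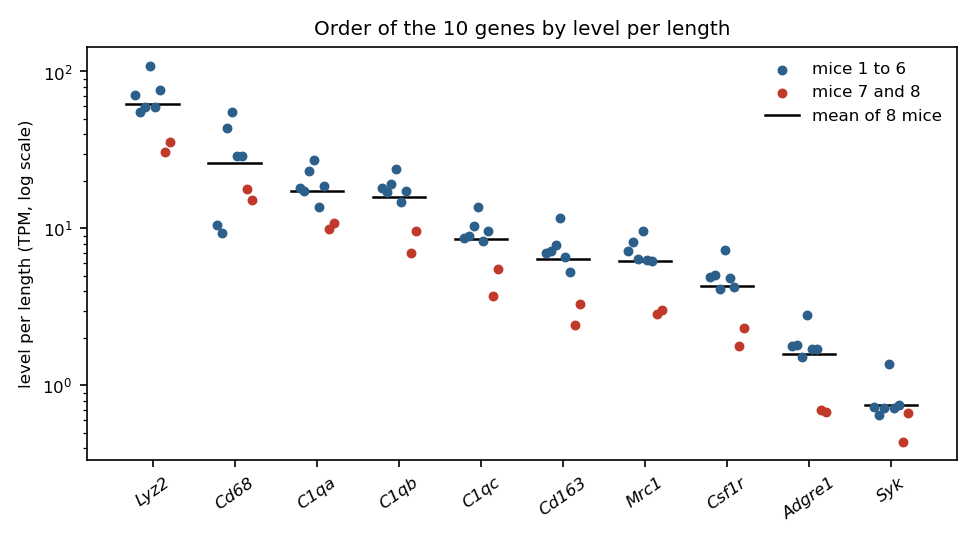
Level per length (TPM, log axis) of the 10 genes, ordered by their mean, with 1 point per mouse and a line at the mean of 8 mice. Lyz2 (62.0 TPM on average) was above Cd68 (26.3 TPM) in all 8 mice, and the points of Cd163 and Mrc1 lie at the same height.

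Across mice, 8 of the genes rose and fell together: each of the 28 pairs among C1qa, C1qb, C1qc, Csf1r, Adgre1, Lyz2, Mrc1 and Cd163 had r of at least 0.8, between 0.80 (Csf1r and C1qa) and 0.985 (C1qb and C1qc). With Lyz2 and Syk (r = 0.803, where 0.364% of all genes reached 0.8 with Syk), this made 29 of the 45 pairs of the 10 genes. Over all 164970 relations of the 10 genes with the tested genes, 3.38% reached 0.8. With 8 mice, none of these relations passed Benjamini-Hochberg adjustment of the exact permutation test over all of them (smallest adjusted p = 0.251), nor within each gene's own relations (smallest adjusted p = 0.0877). Before adjustment, p was under 0.05 for 19487 relations, which is 11.8%, and for 32 of the 45 pairs. Csf1r and Adgre1 had r = 0.975 (exact permutation p = 0.000347) and rho = 0.976 (exact permutation p = 0.000397), and Csf1r and Mrc1 had r = 0.971 (exact permutation p = 0.000422) and rho = 0.952 (exact permutation p = 0.00114).

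Many of these values rested on mice 7 and 8. Without them, 10 of the 45 pairs and 7 of the 28 reached 0.8, against 2.9% of all relations of the 10 genes in the same 6 mice. The 28 values ran from 0.25 to 0.97 with a median of 0.69, all above 0. The 7 were Csf1r with Adgre1 (0.968) and Mrc1 (0.906), Adgre1 with Mrc1 (0.862) and Lyz2 (0.809), and the 3 pairs of C1q chains (0.836 to 0.881). C1qa and Csf1r, in contrast, fell to r = 0.252. Syk, which followed the 8 genes with r from 0.605 (Mrc1) to 0.803 (Lyz2) in all mice, reached 0.889 with Lyz2, 0.858 with Adgre1 and 0.827 with C1qc in the remaining 6 mice.

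**Figure D3:**
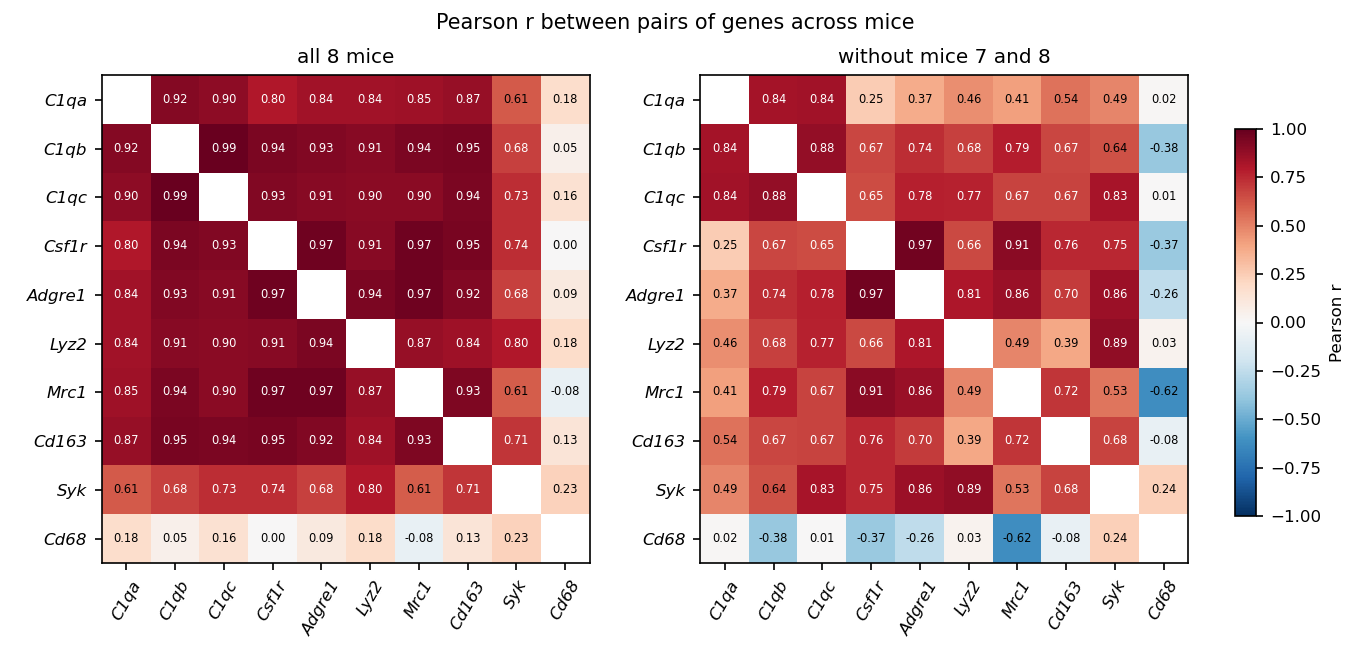
Pearson's r (colour and printed value, from -1 to 1) between every pair of the 10 genes, over all 8 mice at the left and without mice 7 and 8 at the right. At the left, the 8 genes other than Syk and Cd68 form a block between 0.80 and 0.985, at the right their values run from 0.25 to 0.97, and Cd68 stands outside the block in both.

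Cd68 did not follow the other macrophage genes over the 8 mice. Its r with them ran from -0.0773 (Mrc1) to 0.232 (Syk), and 0 of 9 reached 0.8, against 3.55% of all genes for Cd68. None of the 9 had an unadjusted exact permutation p under 0.05. With Csf1r, r was 0.0026 (exact permutation p = 0.995) and rho was 0.0476 (exact permutation p = 0.935). These values depended on which mice were included. Without mice 1 and 2, the 2 farthest from the median of Cd68, r with the other genes was 0.564 for Syk and between 0.80 (Lyz2) and 0.924 (C1qa) for the other 8. Leaving out mice 7 and 8 instead moved r the other way for 8 of the 9, to between -0.619 (Mrc1) and 0.0315 (Lyz2), with -0.383 for C1qb and -0.372 for Csf1r, and left Syk at 0.237. Among mice 3 to 8, Cd68 was highest in mouse 4 and lowest in mice 7 and 8, as were the 8 genes other than Syk. In mice 1 and 2, Cd68 was lowest while 7 of these 8 genes were above their mean in both, Lyz2 being at its mean in mouse 2. Scaling by library totals moved r with the other 9 genes to between 0.142 and 0.499, and TMM factors left it between -0.0842 and 0.216.

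Library composition moved with Cd68. The share of reads taken by the 10 most abundant genes was highest in mouse 1 (26.2%) and mouse 2 (25.3%) and lowest in mouse 3 (18.8%) and mouse 4 (19.6%), and its r with Cd68 was -0.878 (exact permutation p = 0.00635, rho = -0.881, p = 0.00724). Adjusted over the 20 relations of the 10 genes with depth and with this share, p was 0.127, and r was -0.837 without the 2 mice farthest from the median. For the other 9 genes, r with the share was between -0.278 and 0.0249 and r with depth between -0.600 and -0.0186, none with an unadjusted exact permutation p under 0.05. The part of library composition in the values of Cd68 was not tested.

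The genes nearest to Cd68 across mice were Nsun2, an RNA methyltransferase (r = 0.988), Gosr2, a Golgi SNARE protein (r = 0.985), and Kcnv2, a potassium channel subunit (r = 0.981). Without mice 1 and 2 these were 0.965, 0.966 and 0.984. Of 119 listed genes, 2 (1.68%) reached 0.8 with Cd68, against 3.55% of all genes, and 3 (2.52%) reached -0.8, against 2.35% of all genes, so the lists were not set apart from all genes by either count. The 2 were Ctsd, the lysosomal protease cathepsin D (r = 0.922, exact permutation p = 0.00179, rho = 0.905, p = 0.00456, adjusted p = 0.273), and Gas6, the ligand of the MERTK family (r = 0.909, exact permutation p = 0.00335, rho = 0.833, p = 0.0154, adjusted p = 0.282). Without mice 1 and 2, these were 0.934 and 0.761. The 3 were Ckm, the creatine kinase of muscle fibres (r = -0.885, exact permutation p = 0.00623, rho = -0.833, p = 0.0154, adjusted p = 0.296), Myh4, the myosin heavy chain of fast IIB fibres (r = -0.861, exact permutation p = 0.00712, rho = -0.881, p = 0.00724, adjusted p = 0.300), and Ciita, the activator of class II antigen presentation genes (r = -0.823, exact permutation p = 0.00977, rho = -0.881, p = 0.00724, adjusted p = 0.314). Without mice 1 and 2 these were -0.959, -0.762 and -0.401. Ctsd averaged 15302 ± 2885 and Ckm 228742 ± 55716 normalized counts (SD, n = 8), so both are expressed far above Cd68. Eif4a1, a translation initiation factor that lies 782 bases upstream of Cd68 on the same strand and averaged 4583 normalized counts, was examined after its values had been seen. Its r with Cd68 was 0.743 (exact permutation p = 0.0343, rho = 0.762, p = 0.0368, adjusted p = 0.383) and 0.427 without mice 1 and 2. Its lowest values were in mouse 1 (2972 normalized counts) and mouse 2 (3866), and its highest in mouse 3 (5661) and mouse 4 (5950).

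**Figure D4:**
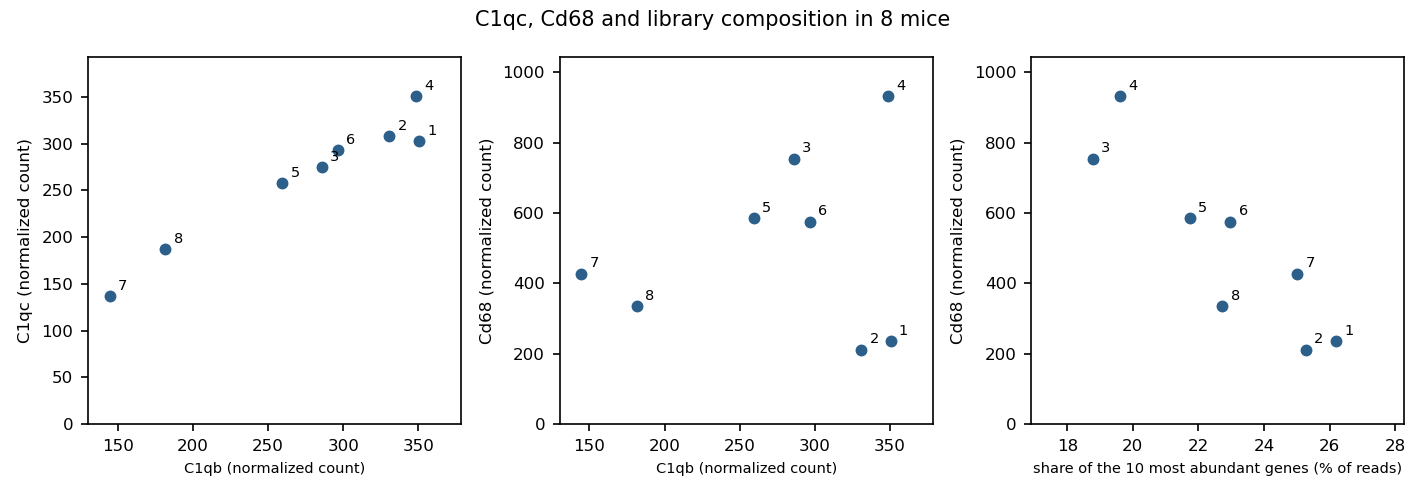
Normalized counts of C1qc against C1qb (left), of Cd68 against C1qb (middle) and of Cd68 against the share of reads in the 10 most abundant genes (right, in %), with each mouse numbered. C1qc rises with C1qb (r = 0.985), Cd68 is low in mice 1 and 2 where C1qb is high, and it falls as the share grows (r = -0.878).

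For the C1q chains, the non-member genes with the highest mean r over the 3 chains were Ptk2b (0.957), Zfp266 (0.956), Fbln1 (0.954), Plxnb2 (0.953) and Plod1 (0.950), each over 8 mice, and without mice 7 and 8 they lay between 0.790 (Zfp266) and 0.838 (Plod1). Csf1r was nearest to Inpp5d, the lipid phosphatase SHIP1 of blood cells (0.979), Cd300ld3 (0.971) and Gm49601 (0.970). Adgre1 was nearest to Folr2, a folate receptor of resident macrophages (0.977), Tlr8, an endosomal receptor for RNA (0.973), and Atad2b (0.973). The nearest genes to Lyz2 were Hcfc2 (0.975), Zfp975 (0.973) and Fcgr3, a low-affinity Fc receptor (0.971). March1 (0.993), Asah1, the lysosomal acid ceramidase (0.985), and Atad2b (0.981) were nearest to Mrc1, and Rora, a nuclear receptor (0.982), Ccl9, a chemokine (0.978), and Rab8b (0.976) to Cd163. The nearest genes of these 5, without mice 7 and 8, lay between 0.834 (Tlr8 with Adgre1) and 0.976 (Rora with Cd163). Syk had weaker neighbours, Gm21188 (0.945), Gm20522 (0.932) and Gm36161 (0.909), at 0.872 to 0.937 without mice 7 and 8 and 0.677 to 0.765 without the 2 mice farthest from its median. The highest values among 16498 genes over 8 mice are extreme by selection, and none of these passed adjustment.

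Lists of genes related to macrophages and to other cells of muscle were then read against C1qb, for the complement chains, and against Csf1r, for the receptor on which the cells depend. Of 151 listed genes besides the 10, 119 had enough reads, and 29 (24.4%) reached r of 0.8 with C1qb and 33 (27.7%) with Csf1r. Of all genes, 3.52% did so with C1qb and 4.14% with Csf1r, while 1.89% and 1.95% reached -0.8. The median r over all genes was -0.0161 for C1qb and -0.0135 for Csf1r. Without mice 7 and 8, the counts were 15 (12.6%) and 7 (5.88%), against 2.85% and 1.96% of all genes in the same 6 mice, and of the 29 and 33 genes only 9 and 6 stayed at 0.8.

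Among 8 of 10 markers of resident macrophages that had enough reads, 6 reached 0.8 with C1qb and the median r was 0.875. F13a1, a transglutaminase subunit of resident macrophages, had 757 ± 297 normalized counts (SD, n = 8) and r = 0.957 with C1qb (exact permutation p = 0.00273, rho = 0.833, p = 0.0154, adjusted p = 0.277). The others were Timd4, a receptor for phosphatidylserine (0.925), Folr2 (0.923), Lyve1, the hyaluronan receptor (0.889), Siglec1 (0.860) and Mertk, which serves the uptake of dying cells (0.823). Folr2 (0.966), F13a1 (0.944), Mertk (0.887) and Lyve1 (0.870) also reached 0.8 with Csf1r. Without mice 7 and 8, r with C1qb was 0.826 for Folr2, 0.628 for Siglec1, 0.574 for Timd4, 0.545 for F13a1, 0.134 for Lyve1 and -0.213 for Mertk. With Csf1r it was 0.922 for Folr2, 0.701 for F13a1, 0.420 for Mertk and 0.241 for Lyve1. Cbr2, a carbonyl reductase on the same list, ran the other way, at r = -0.860 with C1qb and -0.883 with Csf1r (-0.338 and -0.680 without mice 7 and 8), with 422 ± 150 normalized counts (SD, n = 8). Gas6, the most abundant of the list at 66.5 ± 18.1 TPM, had r of 0.0709 with C1qb (-0.450 without mice 7 and 8).

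Of 6 monocyte genes, Plac8 (0.884) and Itgam, an integrin chain (0.872), reached 0.8 with C1qb, and Itgam (0.929) and Ccr2, the chemokine receptor of inflammatory monocytes (0.845), with Csf1r. With mice 7 and 8 left out, Itgam fell to 0.311 with C1qb and was at 0.80 with Csf1r, while Plac8 had 0.838 with C1qb and Ccr2 0.873 with Csf1r. Nr4a1, the factor of patrolling monocytes that is also induced in many other cells, was the most abundant at 40.1 ± 14.7 TPM (SD, n = 8) and had r = -0.687 with C1qb (-0.896 without mice 7 and 8), and Ly6c2 (6.70 ± 1.61 TPM) had 0.322 (-0.540). None of the 7 activation genes with enough reads of 11 listed reached 0.8 with C1qb or with Csf1r, and the median r with C1qb was 0.216. Retnla (10.5 ± 2.08 TPM) and Gpnmb (3.37 ± 2.78 TPM) led that list, with r of -0.374 and 0.653 with C1qb, and of 0.425 and 0.0093 without mice 7 and 8. Nos2, the inducible nitric oxide synthase, had 27.1 ± 5.90 normalized counts (SD, n = 8), Il1b had 1 to 8 reads per library, and Tnf had 0 reads in some libraries.

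In the complement list, 7 of 18 genes with enough reads reached 0.8 with C1qb and 9 with Csf1r, at medians of 0.791 and 0.792. C1ra, a protease of the first component that C1q binds, had r = 0.835 with C1qb and 0.822 without mice 7 and 8. Its partner protease C1s1 had 0.730 and 0.870. Serping1, the inhibitor of these proteases, had 1461 ± 429 normalized counts (SD, n = 8) and r = 0.926 with C1qb (exact permutation p = 0.00337, rho = 0.833, p = 0.0154, adjusted p = 0.283). Among the components that follow, C4b had r = 0.906 and C3, which the convertases cleave, r = 0.910, with 1603 ± 644 normalized counts (SD, n = 8). Of the alternative pathway, Cfb, which forms its convertase, had r = 0.901. Without mice 7 and 8, r with C1qb was 0.815 for Cfb and fell to 0.719 for C3, 0.697 for Serping1 and 0.501 for C4b. C5ar1, the receptor for the anaphylatoxin C5a, had r = 0.928 with C1qb and 0.937 with Csf1r, and stayed above 0.8 with both without mice 7 and 8 (0.815 and 0.811). With Csf1r, genes reaching 0.8 included C1ra, C3, C4b, Serping1, C5ar1, C3ar1 (0.913), C7 (0.891) and C2 (0.804). In the other 6 mice, r with Csf1r stayed above 0.8 for C5ar1 and C3ar1 (0.895) and fell to 0.724 for C7, 0.604 for C1ra, 0.552 for Serping1, 0.501 for C3, 0.384 for C4b and 0.286 for C2.

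Not all complement genes moved with the C1q chains. Cfd, the adipocyte protease that activates factor B, was the most abundant of the list at 53.2 ± 23.8 TPM (SD, n = 8) and had r = 0.595 with C1qb (0.101 without mice 7 and 8). C1qbp, which encodes a mitochondrial protein named for its binding to C1q, had 40.4 ± 10.7 TPM (SD, n = 8) and r = -0.0169 with C1qb (-0.249 without them). Cd55 and Cd59a, regulators that protect cell surfaces, had r of -0.446 and -0.325 with C1qb over all mice, and of 0.274 and -0.495 without mice 7 and 8, so that the sign for Cd55 rested on those mice. Hc, the gene of C5, had 0 reads in all 8 libraries and C6 in some.

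Among the ligands and factors around Csf1r, the ligand Csf1 had 192 ± 42.2 normalized counts (SD, n = 8) and r = 0.925 with Csf1r (exact permutation p = 0.00236, rho = 0.857, p = 0.0107, adjusted p = 0.274), and 0.717 without mice 7 and 8. The other ligand, Il34, had 66.8 ± 6.39 normalized counts (SD, n = 8) and r = -0.121 with Csf1r (exact permutation p = 0.767, rho = -0.167, p = 0.703, adjusted p = 0.931), and 0.0657 without mice 7 and 8. Csf1 was the only 1 of the 8 genes of this list to reach 0.8 with C1qb (0.834, and 0.184 without mice 7 and 8) or Csf1r. Spi1, which encodes PU.1, had 34.4 ± 4.59 normalized counts (SD, n = 8) and r = 0.481 with Csf1r (0.213 without mice 7 and 8), and Maf, the most abundant of the list at 38.9 ± 7.95 TPM (SD, n = 8), had r of -0.543 with it (0.0484).

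Around Syk, 5 of 13 genes with enough reads reached 0.8 with C1qb and 6 with Csf1r, at medians of 0.795 and 0.793. With C1qb these were the Fc receptors Fcgr3 (0.937) and Fcgr2b (0.923), the adaptor Tyrobp, whose phosphorylated motif recruits SYK (0.887), the kinase Lyn (0.866) and the integrin chain Itgb2 (0.839). With Csf1r, Clec7a, the beta-glucan receptor (0.818), joined these 5. Without mice 7 and 8, Fcgr2b kept 0.977 and Fcgr3 0.874 with C1qb, whereas Lyn fell to 0.640, Tyrobp to 0.316 and Itgb2 to 0.208. With Csf1r, all 6 were then below 0.8, between 0.0850 (Tyrobp) and 0.793 (Fcgr2b). Fcer1g, the gamma chain of Fc receptors, had 5.23 ± 1.23 TPM (SD, n = 8) and r = 0.795 with C1qb (0.373 without mice 7 and 8).

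Of the scavenger receptors and lysosomal genes, Stab1, which clears modified lipoproteins, reached 0.8 with C1qb (0.963) and stayed at 0.981 without mice 7 and 8, with rho = 1.0 over the 8 mice. Its exact permutation p was 2.48e-05, the smallest that 8 mice can give, and its adjusted p 0.251. With Csf1r, Stab1 (0.924), Grn (0.853) and Ctss (0.815) reached 0.8 among 10 genes with enough reads of 12 listed, and had 0.763, 0.702 and 0.667 without mice 7 and 8. Ctsd (409 ± 126 TPM) and Lamp1 (374 ± 62.4 TPM), genes that many cells express, had r of 0.102 and -0.0636 with C1qb (-0.479 and -0.777 without mice 7 and 8), and Marco and Cd5l had 0 reads in some libraries. Of 6 genes of antigen presentation, Cd86, a costimulatory ligand, reached 0.8 with C1qb (0.920) and Csf1r (0.898), and fell to 0.508 and 0.496 without mice 7 and 8. Cd74 (25.8 ± 6.98 TPM) and H2-Eb1 (6.91 ± 2.23 TPM), of the class II pathway, had r of 0.372 and 0.371 with C1qb over all mice. These rose to 0.829 and 0.887 without mice 7 and 8, and that of H2-Ab1, of the same pathway, from 0.238 to 0.842.

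Markers of other cells moved with the macrophage genes in part. Of 8 fibroblast genes, Fbln1, an extracellular matrix protein, had r = 0.987 with C1qb (exact permutation p = 0.000124, rho = 0.976, p = 0.000397, adjusted p = 0.254), and 0.964 without mice 7 and 8. Col14a1 (0.813) and Pdgfra (0.807) also reached 0.8 with C1qb, and Fbln1, Col14a1, Pdgfra and Dcn (0.824) did so with Csf1r. When mice 7 and 8 were left out, Col14a1 fell to 0.619 and Pdgfra to 0.262 with C1qb, and with Csf1r Col14a1 had 0.987, Fbln1 0.721, Dcn 0.591 and Pdgfra 0.584. Dcn (104 ± 26.1 TPM) and Dpt (17.6 ± 4.60 TPM) were the most abundant, and the summed fibroblast level was 103 and 112 TPM in mice 7 and 8 against 146 to 208 TPM in the other mice. All 8 genes were detected in every library, and the part of connective tissue in the values of the macrophage genes was not tested. Of 5 mast cell genes, Kit (0.910) and Cpa3 (0.819) reached 0.8 with C1qb, and Kit (0.911), Tpsb2 (0.870) and Cpa3 (0.80) with Csf1r. None stayed at 0.8 without mice 7 and 8: with C1qb, Kit had 0.608 and Cpa3 -0.100, and with Csf1r, Kit had 0.686, Tpsb2 0.65 and Cpa3 0.0168. Mcpt4 and Cma1, proteases of their granules, were the most abundant, at 1.93 ± 0.772 and 1.40 ± 0.501 TPM (SD, n = 8). The summed mast cell level was 3.11 and 3.53 TPM in mice 7 and 8 and 5.69 to 9.80 TPM in the other mice.

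Neutrophil markers were sparse: 3 of 9 had enough reads, of which Csf3r reached 0.8 with C1qb (0.832, and -0.723 without mice 7 and 8), and 7 of the 9 (S100a9, Ly6g, Camp, Ngp, Ltf, Mpo and Elane) had 0 reads in some library. S100a9 averaged 2.72 ± 1.51 TPM and S100a8 1.03 ± 0.775 TPM (SD, n = 8). The summed neutrophil level ran from 0.192 TPM in mouse 7 to 7.39 TPM in mouse 4. All 7 T and NK cell genes (Cd3e, Cd3d, Cd3g, Cd4, Cd8a, Nkg7 and Ncr1) and all 4 B cell genes (Cd79a, Cd79b and Ms4a1 among them) had 0 reads in some library, as had Xcr1, Clec9a and Ccr7 of the 6 dendritic cell genes. Of the 2 dendritic cell genes with enough reads, Zbtb46 (2.07 ± 0.637 TPM) had r of -0.625 and Itgax (0.160 ± 0.0657 TPM) -0.310 with C1qb (-0.744 and -0.128 without mice 7 and 8).

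No gene of the lists for endothelium, blood, adipocytes, satellite cells or muscle fibres reached 0.8 or -0.8 with C1qb or Csf1r over all 8 mice. Without mice 7 and 8, all 5 erythroid genes lay between -0.870 (Hba-a2) and -0.834 (Hbb-bs) with C1qb, where 1.97% of all genes reached -0.8, and no other gene of these lists reached either value with C1qb or Csf1r. The median r with C1qb was 0.780 over 8 fibroblast genes and 0.760 over 5 mast cell genes. It was 0.553 over 5 endothelial genes, 0.605 over 4 adipocyte genes, 0.15 over 5 erythroid genes, -0.154 over 4 satellite cell genes and -0.240 over 7 muscle fibre genes. The summed endothelial level was 33.3 to 55.5 TPM and the summed adipocyte level 6.83 to 29.7 TPM, and both were lowest in mouse 8 and second lowest in mouse 7. Of the most abundant genes of these lists, Cdh5 (0.505) and Pecam1 (0.553) of endothelium, Adipoq (0.759) and Cidec (0.688) of adipocytes and Cdh15 (0.626) of satellite cells had positive r with C1qb over all mice. These were 0.447, 0.0683, 0.170, -0.416 and -0.0569 without mice 7 and 8. Hba-a1 and Hba-a2, which make alpha-globin, had 0.0642 and 0.0556 over all mice and -0.869 and -0.870 without those mice. Myh4 (-0.0992), Myf5 (-0.335) and Tnnt3 (-0.612) had 0.321, -0.322 and 0.108 without them. The summed muscle fibre level did not set mice 7 and 8 apart, at 42546 and 46467 TPM within the range of the other mice.

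**Figure D5:**
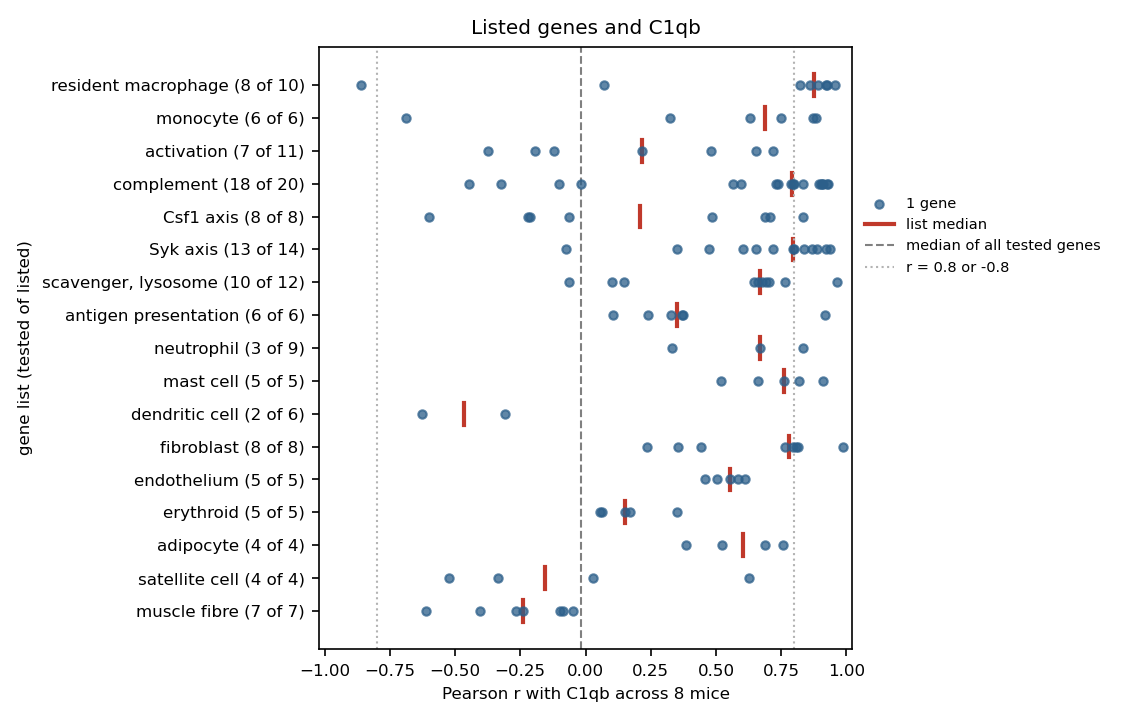
Pearson's r with C1qb across 8 mice (horizontal axis) for each listed gene with enough reads (points), by list (vertical axis, with the number of genes tested of those listed), with the list median in red, the median of all genes dashed and 0.8 and -0.8 dotted. Resident macrophage genes (median 0.875), Syk axis (0.795) and complement genes (0.791) lie to the right, as do fibroblast (0.780) and mast cell genes (0.760), while the median of muscle fibre genes (-0.240) lies to the left of that of all genes.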

How the data were processed

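RNA from 8 muscles was sequenced as polyadenylated RNA. Per the labels and the study's methods, the authors checked reads with FastQC and fastp, mapped them with STAR to GRCm38 and counted them per gene with summarizeOverlaps. The annotation, the use of strand and the treatment of reads that match several genes are not given in the sources used here. The deposited signal values were counts that the authors had divided by a DESeq2 size factor (0.906 to 1.20). Whole reads were recovered for 100% of values within 0.01 of a read and served for depth, the minimum of 10 reads on average, TPM and the edgeR dispersion. The design had assumed raw counts. Reads carry no molecular identifiers, so counting error is a lower limit. Of the 55487 identifiers, 55227 were matched to GENCODE M21 (GRCm38) for symbols, exon lengths and positions.

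Replicates are separate mice of 1 condition. Pearson's r was computed on log2(normalized count + 1) between each gene described and every other gene with enough reads, with exact permutation over 40320 pairings (smallest p 2.48e-05). An r of 0.8 was the second way of calling a relation, used because 8 mice gave no adjusted call. Levels of different genes were compared in TPM per annotated exon length. The 10 genes and all lists were chosen with earlier results of these data known. Named were the 10 genes, the 5 nearest to the C1q chains, the 3 nearest to each other gene, and in each list the 2 most abundant genes, those reaching 0.8 or -0.8 and those at 0 reads in some library. Eif4a1, Il34, Spi1 and other listed genes outside this rule were chosen after their values were seen. Values of a few listed genes are not reported here. Start regions were taken from RefSeq tables on GRCm38.p6. The scripts were tested on simulated data. TMM factors, library totals, a pseudocount of 5, filters, Spearman correlation, removal of GC content and length trends, transcript length and leaving out each mouse were tried. Libraries of other treatments were not analysed here. Computation used edgeR 4.0.16 in R 4.3.3 and, in Python 3.11.15, scipy 1.17.1, numpy 2.4.6, matplotlib 3.10.9 and pandas 2.3.3.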

Additional observations from a re-analysis of the deposited data

How the results depend on the processing

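No paired analysis was possible because all 8 mice had the same treatment. Leaving out mice 7 and 8 together, an alternative chosen after seeing the data, lowered the median CV of the 10 genes from 32.9% to 19.8%, the pairs with r of at least 0.8 from 29 to 10, and the listed genes reaching 0.8 from 29 to 15 with C1qb and from 33 to 7 with Csf1r. Leaving out each mouse in turn gave a summed normalized count of the 10 genes of 4125 to 4676 (4415 with all mice), a median CV of 27.5% to 35.5%, 23 to 31 pairs, 26 to 38 listed genes with C1qb and 26 to 43 with Csf1r, 6 or 7 neighbouring pairs ordered alike, and an SD of the C1q log2 proportions of 0.130 to 0.206 (0.191 with all mice). The scalings, filters, pseudocount and Spearman correlation changed none of these counts by over 1.5 times, and none gave an adjusted call. Of the values for single genes and pairs, 754 kept their side of 0.8 or moved within the spread, 46 fell below 0.8, 7 reached it and 26 moved, mostly pairs with Cd68. Mouse 4, the highest in 8 of the 10 genes, had the smallest library. Among the 10 genes, those with the fewest reads, Adgre1 (35 to 111 reads per library) and Syk (71 to 155), are the least precise. Some listed genes had fewer reads still, such as Plac8 (4 to 20), Timd4 (5 to 27) and Ciita (10 to 22), so their r is less precise.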
